A study of Mus musculus with 4 samples.

Results

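Of 51238 autosomal single-nucleotide variants (SNVs) called with confidence in at least 1 of 4 leukaemia exomes, 2465 (4.81%) were confident in all 4 samples and stayed at an intermediate allele fraction in each of them. The allele fraction is the share of reads at a site that carry the variant base. Confidence required 10 or more reads at the site, 3 or more of them with the variant base and a fraction of 0.10 or more, in SpeedSeq and in VarScan2 alike, the 2 variant callers used by the authors, and a SpeedSeq quality score of 20 or more. A member in addition had a SpeedSeq fraction below 0.65 in every sample, here called lower-range. The members made up 26.0% of the 9464 autosomal SNVs confident in all 4 samples. Of the others, 1596 were at 0.65 or more in all 4 samples (upper-range), and 5403 were lower-range in some samples and upper-range in others. The members were thus chosen by their allele fractions in these same samples, so the fraction is described below and not tested. In the 20 genes with most members, the lowest member fraction in any sample was 0.20, in Gbp2b, and not near 0.10. Whether calls below 0.20 were lost was not tested, so the low median fractions given below carry that limit. Depth and mapping quality entered the choice only through the minimum depth and the quality score.

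The exomes came from genomic DNA of c-Kit+ leukemia cells taken from the bone marrow of moribund mice. All 4 samples belong to a single group, labelled E2-KO, which the series title gives as Nras-G12D with Ezh2 knocked out, on a C57BL/6 background. Age, sex, the means of deleting Ezh2 and the number of animals behind the samples are not given in the labels, and no control or normal tissue enters, so nothing here separates inherited from acquired variants. Replicates 1 to 4 are numbered in the order of listing. Nothing in the labels says that they came from separate mice, so a p-value here covers the spread of these samples alone, part of which may be technical. At the SNVs confident in all samples the median depth was 78, 68, 80 and 72 reads in replicates 1 to 4, while the number of autosomal confident SNVs ranged from 21255 in replicate 4 to 33750 in replicate 1.

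In an inbred strain most sites carry the same base on both chromosomes, so a variant read at an intermediate fraction can mark a segment with 2 haplotypes, a somatic mutation, or reads from more than one locus placed at the same address. Large mouse gene families, such as the vomeronasal receptors that detect pheromones and the zinc finger repressors, contain many recent duplicates, and the reference assembly may hold fewer copies than a given genome. Reads from an absent copy then pile up on its closest relative, which raises the depth there and shows each base difference between the copies as a variant. An aligner gives a read a low mapping quality when it can be placed almost equally well elsewhere.

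The sequences of a few members show how such a difference between copies looks. RefSeq sequence of GRCm38, the assembly behind mm10, was available as windows of 300 bases at gene starts (250 before the start and 50 after), and 24 members lay inside the windows of 20 genes. The reference base of the call matched the window at 24 of 24. At 15 of these members another gene's window was at least 90% identical over at least 240 bases, and at 8 of the 15 such a copy carried the member's variant base as its own reference base. At the other 7 no such copy did, and 9 members had no copy. Among upper-range SNVs, 9 of 19 in windows had a copy, 3 of them with the variant base, and among SNVs of differing range 2 of 50 had one, both with the variant base. With so few sites, a matching base among those with a copy is not shown to be particular to members. The stretches below are shown because each pair sets a gene with a member beside a gene that holds the variant base of a member. They are written on the gene's strand, with every member's base in capitals in the first of a pair and the matching variant base in capitals in the second, and positions count from 1 at the 5′ end of the window. Pairs of this kind for Zfp977, Gm3072 and Gm7152 are left out. In Gm3072 the variant base of A268C was in 5 of 14 close copies and the reference base in 8. The closest of those copies, Gm7954 at 99.3% identity, did not carry the variant base.

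Gm9758, chr5:14915038-14915098, minus strand: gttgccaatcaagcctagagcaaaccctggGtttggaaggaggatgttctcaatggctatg
Gm21190, chr5:15529428-15529472, minus strand: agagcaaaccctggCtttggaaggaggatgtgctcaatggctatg
Gm1979, chr5:26004770-26004852, minus strand: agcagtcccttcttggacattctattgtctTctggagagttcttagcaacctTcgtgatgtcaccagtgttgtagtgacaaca
5031410I06Rik, chr5:26105334-26105416, minus strand: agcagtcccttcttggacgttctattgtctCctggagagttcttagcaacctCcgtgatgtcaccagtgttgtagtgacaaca
Gm10471, chr5:26089283-26089343, minus strand: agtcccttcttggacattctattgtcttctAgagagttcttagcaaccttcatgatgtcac
Gm1979, chr5:26004789-26004849, minus strand: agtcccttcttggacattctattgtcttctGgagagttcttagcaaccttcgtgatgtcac
Gm29087, chr7:38528086-38528130, plus strand: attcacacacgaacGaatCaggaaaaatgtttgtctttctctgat
Gm33067, chr7:39179678-39179722, plus strand: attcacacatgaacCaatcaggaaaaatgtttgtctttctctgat

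In Gm9758 the member was G72C, and all 20 windows that align there at 90% or more hold the variant base. Its allele fraction was 0.622, 0.581, 0.519 and 0.284 in replicates 1 to 4, at depths of 82, 105, 108 and 67 reads, so it was lowest in replicate 4. Gm1979 held the members T156C and T178C, whose variant bases are present in 13 and 14 of its 15 close copies. The closest of these, Gm21671 at 98.7% identity, carries the variant base of T178C but not that of T156C. The copy shown, 5031410I06Rik at 97.5%, carries both. The fraction of T178C was 0.282, 0.270, 0.291 and 0.252 at depths of 241, 256, 282 and 337 reads, and its variant reads had a mean mapping quality of 24.4. In Gm10471 the member A202G had its variant base in 20 of 21 close copies, Gm1979 among them, and fractions of 0.343, 0.3498, 0.369 and 0.351. Those 4 fractions lay close together at depths of 213 to 260 reads. Another member in the window of Gm10471, C299T, lies outside the stretch shown, and none of 12 close copies carries its variant base. Gm29087 held a pair of members called in 1 record on the same reads: G15C, whose variant base all 4 close copies carry, and C19A, whose variant base none of them carries, so that the second capital of Gm29087 has no counterpart in Gm33067. Both had fractions of 0.430, 0.414, 0.413 and 0.401. A matching base in a copy describes the reference sequence and does not show where the reads came from.

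A site in Ugt1a1 is shown as 1 of the 9 members with no copy in another gene's window. Copies away from gene starts were not searched. Mapping quality among the 9 ranged from 33.8 in Gm40504 to 60, so the site does not stand for all of them. Its depth was 1.86 times the sample median. In Ugt1a1, one of the UDP-glucuronosyltransferases that tag bilirubin and drugs for excretion, the member A214C stood at 0.387, 0.374, 0.366 and 0.351, at depths of 142, 107, 153 and 154 reads and a mapping quality of 60.

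Ugt1a1, chr1:88211892-88211952, plus strand: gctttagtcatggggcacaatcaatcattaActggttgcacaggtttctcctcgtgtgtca

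Members as a set were deeper than the other classes of SNV across the autosomes. Their median depth was 146, 138, 153 and 147 reads in replicates 1 to 4. SNVs that were upper-range in all 4 samples had medians of 110, 82, 84 and 81 reads, those whose range differed had 62, 53, 64 and 58, and the remaining lower-range SNVs of each sample had 52, 45, 52 and 51. Every sample thus had its highest median at the members. The log2 ratio of medians was 0.72 ± 0.215 (SD, n = 4) against the upper-range SNVs, a 1.65-fold difference. It was 1.30 ± 0.0686, or 2.47-fold, against SNVs of differing range and 1.55 ± 0.0537, or 2.92-fold, against the other lower-range SNVs. Each ratio was positive in 4 of 4 samples, with an exact two-sided sign-flip permutation p of 0.125, the smallest that 4 samples allow, so no comparison of this kind can pass 0.05. The other lower-range SNVs had to be confident only in the sample concerned, but members in all 4, so the rule itself may widen that ratio. With a minimum depth of 20 or 30 reads, the log2 ratio to them was 1.37 or 1.29. The ratio to SNVs of differing range, which were also confident in all samples, was then 1.19 or 1.15. The distance of a site from a captured exon was not measured here, because the gene table gives no exons.

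Mapping quality set the members apart in the same samples. The mean mapping quality of variant reads was under 50 at 54.4%, 56.2%, 55.1% and 55.6% of members in replicates 1 to 4, against 29.1%, 30.5%, 31.1% and 30.5% of the upper-range SNVs, 10.4%, 10.5%, 10.4% and 10.5% of SNVs of differing range, and 15.7%, 13.0%, 10.6% and 17.8% of the other lower-range SNVs. The differences were 25.0 ± 0.748, 44.9 ± 0.712 and 41.0 ± 3.26 percentage points (SD, n = 4), positive in 4 of 4 samples, each with an exact sign-flip permutation p of 0.125. Reads with the reference base at the same sites were placed with more certainty: their mapping quality was under 50 at 26.3% to 27.3% of members, and its median was 59.2 to 59.5. Over sites with such reads the share was lower in every other set. It was 9.98% to 16.8% at upper-range SNVs and 3.61% to 17.8% at those of differing range. At the other lower-range SNVs it was 4.46% to 8.28%. Variant reads lay on a single strand at 8.76%, 10.1%, 11.5% and 10.8% of members. That share was 6.19 ± 0.151 points above the upper-range SNVs, 3.72 ± 0.859 above those of differing range and lower than among the other lower-range SNVs, by a difference of -8.57 ± 3.57 points (SD, n = 4; exact permutation p = 0.125 for each). The last difference shrank with a higher minimum depth, to -3.37 ± 2.80 points at 20 reads (exact permutation p = 0.25, n = 4) and -0.41 ± 2.48 at 30 reads (exact permutation p = 0.875, n = 4), and was -3.88 with VarScan2 alone.

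**Figure D1:**
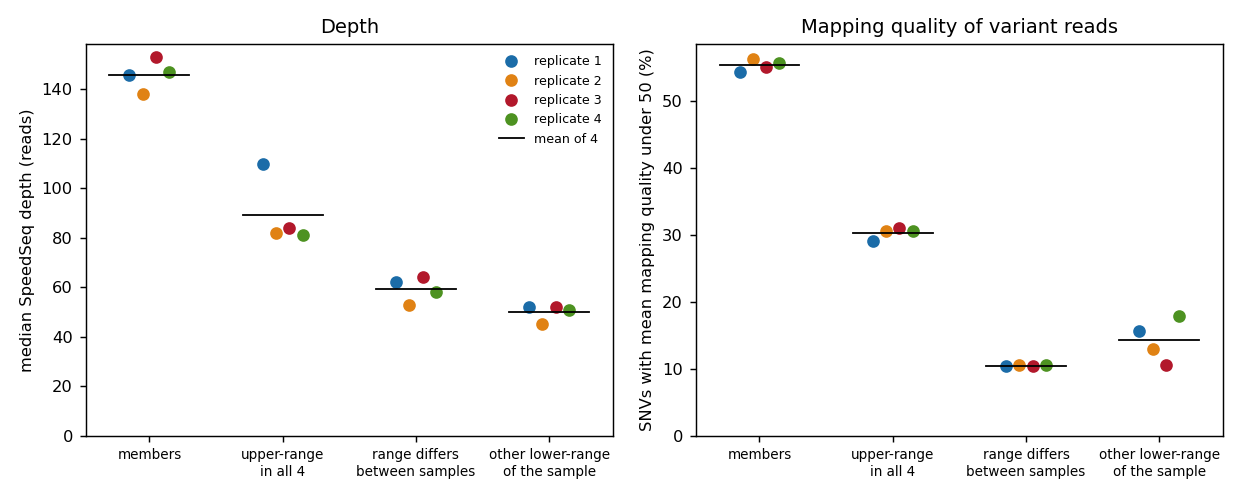
Median SpeedSeq depth in reads (left) and the percent of SNVs whose variant reads have a mean mapping quality under 50 (right), for members and 3 comparison sets; points are the 4 replicates and bars their mean. Members sit at 138 to 153 reads and 54.4% to 56.2%, above every comparison set in each replicate.

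These differences depend on which samples define membership. Leaving out a replicate relaxes the rule, so the 2465 members stay and SNVs absent or upper-range in the omitted sample join them: omitting replicate 1 gave 2961, replicate 2 gave 4207, replicate 3 gave 4057 and replicate 4 gave 6465. Without replicate 4, which has the fewest confident SNVs, the depth ratio to upper-range SNVs was -0.05 (log2) and the mapping quality difference to them -3.00 points, so both changed sign. Against the SNVs of differing range the values were then 0.55 and 19.6 points, and against the other lower-range SNVs 0.74 and 14.7 points. The exact permutation p cannot go below 0.25 with 3 samples. With all 4 samples, the log2 depth ratio to upper-range SNVs was 0.35 at a minimum depth of 30, and 0.10 when members, but not the SNVs set against them, were limited to a mapping quality of at least 50 in all samples.

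Site by site, 1296 members (52.6%, exact 95% binomial interval 50.6 to 54.6) had a depth of at least 1.5 times the sample's median in all 4 samples, against 28.0% of all 9464 SNVs confident in all samples. A depth of at least 5 times the median was reached in all samples by 548 members (22.2%), against 9.75% of those SNVs. A mapping quality under 50 in all samples was found at 1292 members (52.4%), against 23.9%. Both features together marked 866 members (35.1%, against 14.1%), and at least one of them 1722 (69.9%, against 37.8%). Members confined to 1 strand in all samples numbered 138 (5.6%, against 3.25%), and 33 (1.34%, against 1.53%) had a VarScan2 indel within 10 bases in all samples, a share close to the background. These intervals cover counting error only, and neighbouring sites share reads. The share with low mapping quality in all samples was 26.7% when replicate 4 was left out, 35.8% when replicate 2 was, 37.5% for replicate 3 and 50.5% for replicate 1. Upper-range SNVs alone lay closer to the members than all shared SNVs did. Of them 35.9% reached 1.5 times and 17.4% reached 5 times the median depth in all samples, and 28.8% had low mapping quality. For SNVs of differing range these shares were 14.4%, 1.81% and 9.51%.

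Split by mean depth ratio (1.5 times the sample median) and mean mapping quality (50), the members fell into 4 kinds. The largest held 997 SNVs (40.4%) that were deep and of low mapping quality, with a median depth ratio of 5.14 and a median mapping quality of 32.8. A further 462 (18.7%) were deep with high mapping quality, at a ratio of 3.11, and 379 (15.4%) had low mapping quality without extra depth. The remaining 627 (25.4%) had neither feature: their depth ratio was 0.81 and their mapping quality 60. The last kind also differed in base change, since 70.0% of it were transitions (purine to purine or pyrimidine to pyrimidine), against 53.5% of the deep SNVs of low mapping quality, 56.7% of the not deep ones of low mapping quality and 61.5% of the deep ones of high mapping quality. Over all members 1471 (59.7%, 57.7 to 61.6) were transitions, against 68.0% of all SNVs confident in all samples.

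**Figure D2:**
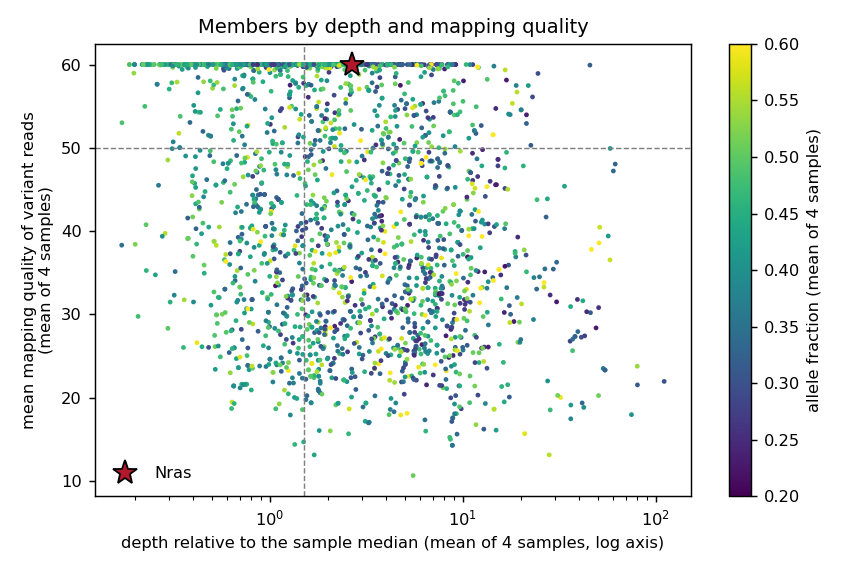
Each point is 1 of the 2465 members, placed by its depth relative to the sample median (log axis) and the mean mapping quality of its variant reads, both averaged over 4 samples; colour is the mean allele fraction, dashed lines mark 1.5 times the median and a mapping quality of 50, and the star is Nras. Points fill the lower right (997 SNVs) and line up at a mapping quality of 60 along the top.

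The fraction varied most between samples in the kind with neither feature. Its median was 0.466, 0.449, 0.375 and 0.460 in replicates 1 to 4, so replicate 3 was low. Deep members of low mapping quality had medians of 0.402, 0.402, 0.399 and 0.406, with no such dip, and the not deep ones of low mapping quality had 0.423, 0.410, 0.420 and 0.417. Deep members of high mapping quality had 0.409, 0.406, 0.384 and 0.426, with replicate 3 again lowest, by less than in the first kind. Set against the mean of the other 3 samples at the same sites, the median shift of replicate 3 was -0.07 where neither feature was present and between -0.005 and -0.007 in the other 3 kinds. Replicate 3 had the lowest of the 4 fractions at 53.7% of the members with neither feature, and at 26.4% to 35.9% of the members of the other kinds. Over the series replicate 3 has lower fractions than the other samples at its other lower-range SNVs too, with a median of 0.382 against 0.455, 0.464 and 0.459. The fraction's 95% interval lay wholly below 50% in all 4 samples at 468 (46.9%) of the deep members of low mapping quality and at 199 (43.1%) of the deep members of high mapping quality, but at 33 (5.26%) of those with neither feature, whose intervals are wider because their depth is lower.

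**Figure D3:**
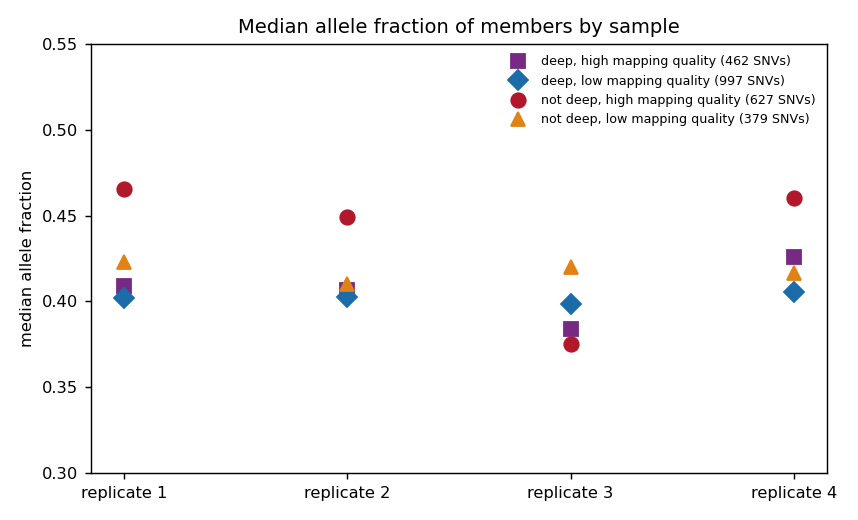
Median allele fraction (vertical axis, from 0.30 to 0.55) of the 4 kinds of member in each replicate, with the number of SNVs in the key. The kind with neither feature drops to 0.375 in replicate 3 from 0.449 to 0.466 in the others, while the deep kind of low mapping quality stays between 0.399 and 0.406.

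A fixed list of gene families held a large part of the members, spread unevenly over the list. Of the 2465, 2078 lay in a gene body, in 334 genes or sets of overlapping genes, of which 61 held at least 10 members and 111 held 1. Positions are stated by gene body only. Members in a body of the 29 gene families listed for this purpose numbered 1347 (54.6%), against 26.6% of all SNVs confident in all samples. Without the predicted Gm genes and the Rik genes, which are named by their discovery and not by descent, there were 876 (35.5%, against 15.1%). No member lay in the listed Ig, T-cell receptor segment, Defa, Defb, Serpina, Serpinb, Klr, Ceacam, Psg, Hist, Skint, Ifi2, Ces or Tas2r groups. Each of these families held at most 2 of the SNVs confident in all samples. Pram genes held 1 member (0.041%, against 0.116%). Pseudogene bodies held 387 members (15.7%, against 9.83%), protein-coding bodies 1639 (66.5%, against 77.5%), and no gene body 387 (15.7%, against 10.6%). The family share was 35.3% when replicate 4 was left out and 40.3% to 52.0% when another replicate was.

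Among the receptors, 334 members (13.5% of members, 5.37% of all shared SNVs) lay in 22 vomeronasal receptor genes or pseudogenes. In Vmn2r115, on chromosome 17, 61 members had median depths of 502, 478, 558 and 502 reads. Their median fractions were 0.477, 0.481, 0.492 and 0.489, and their mean mapping quality was 31.0. In Vmn2r129, on chromosome 4, 60 members had depths of 496, 585, 609.5 and 570.5 reads and lower fractions of 0.369, 0.352, 0.339 and 0.327. Vmn2r114 held 39 members and Vmn2r117 and the pseudogene Vmn2r125 held 25 each, at depth ratios of 6.55, 5.49 and 8.14, and 43 lay where Vmn2r88 overlaps Gm7247, at 4.05. All of these vomeronasal genes were thus well above the sample median in depth. Olfactory receptors, another large family, held 14 members in 4 genes, 0.568% of members against 0.919% of shared SNVs.

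Zinc finger genes, most of which encode DNA-binding repressors, held 127 members (5.15%, against 1.99%) in 17 genes. Zfp982 had 21 members at depths of 851, 730, 836 and 789 reads, a ratio of 10.8 ± 0.230 (SD, n = 4), with fractions of 0.358, 0.374, 0.384 and 0.386. Zfp978 had 30 members at a ratio of 2.16 ± 0.172. Both lie on chromosome 4.

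Cytochrome P450 genes of the Cyp2, Cyp3 and Cyp4 groups, enzymes that oxidise drugs and steroids, held 84 members (3.41%, against 2.46% of shared SNVs, a share near the background), and the Ugt genes held 30 (1.22%, against 0.655%). The pseudogene Cyp3a63-ps held 61 members at 232, 229, 286 and 248 reads with fractions of 0.462, 0.460, 0.480 and 0.451, close to 0.5 in every sample. The body shared by the Ugt1a genes held 29 members at 458, 343, 477 and 396 reads, with fractions of 0.271, 0.281, 0.272 and 0.267 and a mapping quality of 60. The neighbouring Mroh2a held 76, more than any other gene, at 246.5, 200.5, 256.5 and 222.5 reads, fractions of 0.324, 0.325, 0.325 and 0.318 and again a mapping quality of 60. Depth in Mroh2a was 3.10 ± 0.112 times the median, so here extra depth came without low mapping quality.

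Members in the genes Sp100, Sp110 and Sp140 numbered 56 (2.27%, against 0.814% of shared SNVs). Sp110 and Sp140, nuclear body proteins induced by interferon, overlap where 25 members lay at 1259, 883, 1212 and 1059 reads, a depth ratio of 14.7 ± 1.32, with fractions of 0.300, 0.312, 0.318 and 0.308. The interferon-induced GTPase gene Gbp2b held 52 members at 85.5, 101, 104 and 95 reads, a ratio of 1.30 ± 0.159, with a mapping quality of 59.8 and fractions of 0.349, 0.327, 0.284 and 0.332, lowest in replicate 3. The 5 Gbp genes together held 84 members (3.41%, against 0.983%), of which 39.3% were deep and 4.76% of low mapping quality. The 3 Sirpb genes, which encode signal-regulatory receptors of myeloid cells, held 35 (1.42%, against 0.370%), of which 71.4% were deep and 94.3% of low mapping quality. In the T-cell receptor beta locus, where Tcrb overlaps Gm2719, 4 members had a depth ratio of 3.06 ± 0.581. In the family counts they stand under the predicted Gm genes, because receptor genes were matched there by the names of single segments.

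Mucins, secreted or membrane glycoproteins with long repeats, held 50 members (2.03%, against 0.666% of shared SNVs), all of them deep. Muc4 had 39 at 396, 372, 402 and 458 reads with fractions of 0.321, 0.304, 0.318 and 0.319, and Muc6, the gastric gel-forming mucin, had 7 at a ratio of 18.4 ± 0.596. Dmbt1, a secreted scavenger receptor, held 31 at 336, 317, 388 and 435 reads. Its fractions were 0.399, 0.417 and 0.385 in replicates 1 to 3 but 0.576 in replicate 4. The other confident SNVs in and within 100 kb of this run of members were also highest in replicate 4, with medians of 0.464, 0.487, 0.402 and 0.870.

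Several genes with many members showed neither extra depth nor uncertain placement. Dock1, an activator of the small GTPase Rac, held 60 members at 70, 68, 76 and 75 reads, with a depth ratio of 0.97 ± 0.0624 and a mapping quality of 60. The fractions were 0.489, 0.473, 0.383 and 0.493, lowest in replicate 3. The mitochondrial aspartate-glutamate carrier Slc25a12 held 25, with a ratio of 0.77 ± 0.0661 and fractions of 0.500, 0.479, 0.352 and 0.457, and the phosphodiesterase Pde11a held 22, with a ratio of 0.83 ± 0.0893 and fractions of 0.467, 0.442, 0.372 and 0.498. In these 3 genes replicate 3 had the lowest median, as over the whole kind with neither feature.

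The extremes of depth were found in small groups of sites. In Chl1, a neural cell adhesion gene, 7 members between positions 103649128 and 103649248 of chromosome 6 had median depths of 8018, 5748, 1682 and 718 reads, so the depth ratio of 54.6 ± 46.0 (SD, n = 4) varied almost as much as its mean while the fraction stayed at 0.349, 0.347, 0.308 and 0.309. LOC100504180 reached 4363.5, 3553, 4066.5 and 4201 reads at its 8 members and was steady, at a ratio of 54.3 ± 3.43. The lowest ratios among genes with at least 3 members belonged to the pseudogene Gm4862 (0.20 ± 0.0510), the calmodulin regulator gene Pcp4 (0.23 ± 0.0839) and Gm1995 (0.31 ± 0.0255), all with a mapping quality of 58.7 or more. The lowest mapping qualities were 18.9 where Gm2427 overlaps Gm7592, 21.5 in Nlrp5, a maternal factor of the egg, and 21.9 in Gm21663.

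**Figure D4:**
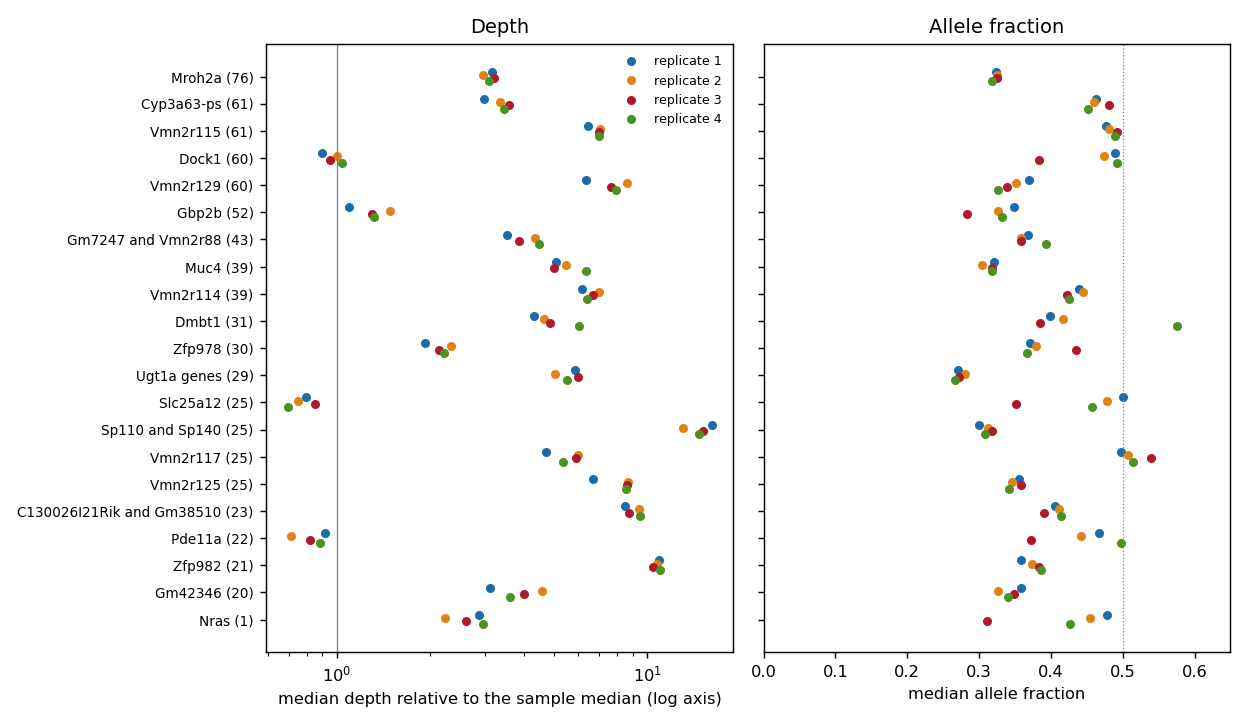
Median depth relative to the sample median (left, log axis, line at 1) and median allele fraction (right, dotted line at 0.5) of the members in the 20 genes that held most of them, with the number of members in brackets, and in Nras; points are the 4 replicates. Sp110 with Sp140 and Zfp982 lie farthest right in depth, Dock1, Slc25a12 and Pde11a lie near or below 1, and Dmbt1 stands out in replicate 4 at 0.576.

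Nras, the small GTPase gene whose G12D allele these mice carry by genotype, held 1 member, at position 103058956 of chromosome 3, a G-to-A change. Its variant reads were 107 of 224, 69 of 152, 65 of 209 and 91 of 213, or 47.8% (exact 95% interval 41.1 to 54.5), 45.4% (37.3 to 53.7), 31.1% (24.9 to 37.9) and 42.7% (36.0 to 49.7). Replicate 3 was lowest here too. The mapping quality was 60 for reads with either base and the depth was 2.67 ± 0.325 times the sample median, so by the same division this SNV fell among the deep members of high mapping quality. Whether the change alters codon 12 was not worked out here, because no coding sequence was used.

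Members lay close together. With gaps of at most 100 kb they formed 222 runs, of which 64 held a single member, while 55 held at least 10 and together contained 79.1% of members. The 10 largest runs held 44.4%. Another member was within 1 kb for 87.0% of members and within 100 bases, the read length, for 73.5%, compared with 82.3% and 66.9% among upper-range SNVs and 79.4% and 57.6% among SNVs of differing range. Dense neighbours are therefore a property of all 3 sets.

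The largest run, of 166 members, covered Vmn2r129 and Vmn2r125 at chr4:156333196-156358001, with 89.8% of its members deep. The second held 145 in Vmn2r114 to Vmn2r117 at chr17:23290916-23479599, where 95.9% had low mapping quality. The third held 129 among zinc finger genes at chr4:147086414-147821719. The fourth, chr1:88211922-88277442, held 127 in the Ugt1a genes, Mroh2a and Hjurp, a centromere histone chaperone. Its members had a mapping quality of 60 throughout and median fractions of 0.319, 0.321, 0.322 and 0.312. The other confident SNVs in or within 100 kb of that run, 273 to 345 of them, had medians of 0.778, 0.765, 0.774 and 0.776 and depths of 1.13, 1.66, 1.94 and 2.24 times the sample median. Neither group of SNVs showed the dip of replicate 3. The fifth, chr3:142507787-142812063, held 118 in and near the Gbp genes at an ordinary depth ratio of 1.07, and there replicate 3 was lowest, at 0.327 against 0.433 to 0.478.

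The chromosomes differed in how many of their shared SNVs were members. Chromosome 4 held 455 members, 81.1% of its SNVs confident in all samples, and chromosome 3 held 238, or 82.6%. On chromosome 11, by contrast, 73 of 2268 (3.22%) were members, and on chromosome 19, 19 of 946 (2.01%). Around each member, the confident SNVs of the same sample within 100 kb were themselves mainly lower-range (at least 80% of at least 5 neighbours) for 26.7%, 34.9%, 36.6% and 30.9% of members in replicates 1 to 4. Such surroundings were mainly upper-range for 2.27%, 3.37%, 9.13% and 5.11%, most often in replicate 3. Of the 225 members with such surroundings in replicate 3, 118 were deep with high mapping quality. In replicates 1, 2 and 4 this kind made up 10 of 56, 9 of 83 and 18 of 126. Fewer than 5 neighbours were present for 25.1%, 18.1%, 22.4% and 22.6% of members, and the rest had a mixture. These shares were not computed for SNVs outside the members, so none of them is shown to be particular to members.

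Close copies of gene starts separated the members by mapping quality. Among protein-coding genes with a start window, 70 of 188 genes with a member (37.2%) had another gene's window at least 90% identical, against 8.88% of all 17491 such genes. For genes with at least 1 member of low mapping quality the count was 66 of 107 (61.7%, exact 95% interval 51.8 to 70.9). For genes whose members were all of high mapping quality it was 4 of 81 (4.94%, 1.36 to 12.2), and for genes with other shared SNVs and no member 19 of 563 (3.37%, 2.04 to 5.22). Mapping quality reflects sequence similarity by its construction, and the windows show that similarity at gene starts only. Windows were found for 80.3% of the protein-coding genes with a member. They were found for 78.8% of the genes whose members all had neither feature, below the 80% set as the least coverage for a comparison, so none is given. The share of protein-coding genes with members that had a copy was lower with relaxed membership: it fell to 17.6% on omitting replicate 4, 22.4% on omitting replicate 3 and 24.6% on omitting replicate 2.

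**Figure D5:**
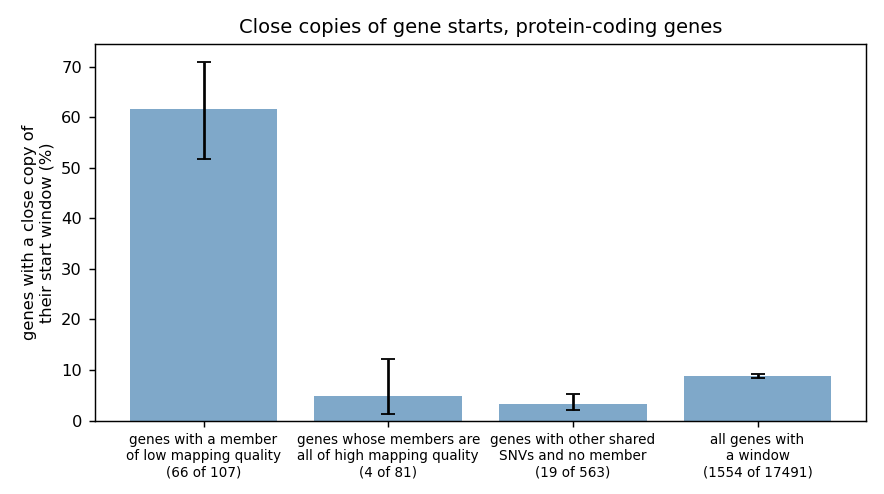
Percent of protein-coding genes whose 300-base start window has a copy of at least 90% identity in another gene, with exact 95% intervals, for 4 sets of genes with their counts in brackets. The bar for genes with a member of low mapping quality reaches 61.7%, the others stay at 8.88% or less.

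At the limit of 0.65 the members graded into their neighbours. There were 312 members whose highest fraction was 0.60 to 0.65, with a median depth ratio of 1.19 and low mapping quality in 49.0%. Just outside, 214 SNVs with a highest fraction of 0.65 to 0.70 had a ratio of 1.55 and low mapping quality in 50.9%. Between samples the members' values were much alike: across the 2465 sites, which share capture and neighbours, Pearson's r for each pair of samples was 0.934 to 0.983 for log2 depth, 0.981 to 0.986 for mapping quality and 0.587 to 0.702 for the allele fraction. The 3 lowest values for the fraction were those of the pairs with replicate 3.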

How the data were processed

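Genomic DNA was captured with an Agilent SureSelect XT mouse exon kit and sequenced as pairs of 100-base reads on a BGISEQ500, per the labels' protocols. Per the file headers, the SpeedSeq variants come from freeBayes 0.9.21, run against mm10 on each sample alone. Each deposited record holds a Phred-scaled quality score, the depth, the variant reads and their mean mapping quality. VarScan2 tables were deposited beside them. Both mm10 and GRCm38 appear in the submitters' processing notes. Not given in the sources used here are the aligner, the handling of duplicates and the version of VarScan2.

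The members and lists were chosen with earlier results of these data known. Multi-base records of equal length were split into single-base differences. Depth ratios divide by the sample's median over the 9464 SNVs confident in all samples. Samples formed 1 group; per-sample medians and shares were compared with exact two-sided sign-flip permutation tests over 4 samples (9 comparisons, unadjusted, as none can pass 0.05), and scripts were tested on simulated data. Genes came from a RefSeq table of GRCm38. The planned comparison of protein copies was replaced by blastn 2.17.0 between gene-start windows, because protein sequences were not used here. Genes named were Nras, the 20 with most members, the 3 highest and 3 lowest in depth and the 3 lowest in mapping quality among those with at least 3 members, and the 5 largest runs. The example sequences, the Tcrb, Muc, Sirpb and Olfr counts and Hjurp were added after values were seen. Python 3.11.15, numpy 2.4.6, scipy 1.17.1 and pandas 2.3.3 were used. Alternatives varied the callers, quality, depth, fraction and mapping quality limits, and the samples.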

Additional observations from a re-analysis of the deposited data

Results flagged for a closer look

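Among 48 quantities with 4 values each, 3 had 1 sample far from the other 3; chance alone flags about 1 in 20 such groups. The members in Dmbt1 had a median fraction of 0.576 in replicate 4, against 0.385 to 0.417 in the other samples. The members in Mroh2a had 0.318 in replicate 4, against 0.324 to 0.325, a gap that is small in absolute terms. The median mapping quality over all members was 47.2 in replicate 1, against 45.8 to 46.0.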

How the results depend on the processing

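There were 25 alternative settings, and 126 of 129 recomputed depth, mapping quality and strand differences kept their direction. The settings for gaps, neighbours, families, the fold of the depth call, copy identity and the split into kinds recomputed none of these differences. Direction was read from the sign of the mean alone, so very small differences count as kept. Among them was the log2 depth ratio of 0.10 ± 0.228 to upper-range SNVs with members limited in mapping quality (exact permutation p = 0.375). Another was the strand difference of -0.41 ± 2.48 points to the other lower-range SNVs at 30 reads (exact permutation p = 0.875). The 3 that reversed were the depth ratio (-0.05, log2) and mapping quality difference (-3.00 points) to upper-range SNVs without replicate 4, and the strand difference to SNVs of differing range (-0.61 points) with SpeedSeq alone. Leaving out 1 replicate gave depth ratios to upper-range SNVs of -0.0508 to 0.781, mapping quality differences to them of -3.00 to 23.1 points, 2961 to 6465 members, 259 to 346 runs, 35.7% to 52.2% deep members, 26.7% to 50.5% of low mapping quality, 35.3% to 52.0% in a listed family, 30.1% to 42.0% in lower-range surroundings and 17.6% to 33.0% of genes with a copy. VarScan2 alone gave 3784 members, 48.2% deep and 38.2% in lower-range surroundings. SpeedSeq alone gave 57.7% deep and 54.9% of low mapping quality. A mapping quality of at least 50 left 1038 members in 132 runs, 36.2% deep, 80.4% within 1 kb of another, 35.6% in a family, 44.7% in lower-range surroundings and 18.6% of genes with a copy. A depth of at least 20 gave 50.5% deep, and one of at least 30 gave 49.1% deep, 55.4% of low mapping quality and 57.2% in a family. A fraction below 0.60 gave 54.7% deep and 27.3% in lower-range surroundings, and below 0.75 the latter was 41.3%. A mapping quality limit of 55 or 40 gave 60.2% or 36.6%, gaps of 10 kb or 1 Mb gave 425 or 139 runs, and a depth of 2 times the median 43.6%. With single-base records only, 49.9% had low mapping quality and 82.9% lay within 1 kb of another; without Gm and Rik genes the family share was 35.5%. Apart from settings that redefine a limit or the samples, the cause was not tested. The protein copy comparison at 80% and 95% identity was not run. With the gene-start windows, 41.0% of protein-coding genes with a member had a copy at 80% identity and 31.4% at 95%. Among all protein-coding genes with a window these shares were 11.2% and 6.98%. No paired analysis was possible because the samples form 1 group, so no replicate numbers are shared between groups; the differences between classes of SNV were taken within each sample throughout. Depth limits the fraction of single sites: even at the 152 to 224 reads of Nras the intervals of replicates 1, 2 and 4 overlap one another, and that of replicate 3 overlaps those of replicates 2 and 4. It does not overlap that of replicate 1. Overlap does not show that fractions are equal, and the replicates were not tested against each other. The intervals cover the sampling of reads only.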
